A study of Homo sapiens with 12 samples.

Results

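The genes described here are 43 very long genes, most of them known from neurons or from common fragile sites. They were chosen by name, with earlier results of these data known, and found as 43 of the 52889 gene entries of the count table. In RefSeq annotation of GRCh38.p14 all 43 are protein-coding, they lie on 16 chromosomes, and they span from 643 kb (LSAMP) to 2474 kb (RBFOX1), with a median of 1370 kb and 62.0 Mb in all. The counts come from ATAC-Seq, in which the transposase Tn5 cuts open chromatin and attaches adapters to it, in HEK293T cells, a human embryonic kidney line. Mock cells (3 samples) carried the empty vector pSBTet-GP. Cells of day 0 (d0, 3 samples) were stably transfected with constitutive MLL-AF4, the fusion of the direct t(4;11) translocation. Cells of day 3 (d3, 3 samples) carried constitutive MLL-AF4 plus inducible AF4-MLL, the reciprocal fusion, which doxycycline (1 µg/ml, 48 h) had switched on. Cells of day 28 (d28, 3 samples) bear the same genotype label as d0, and that AF4-MLL had been on before and off for 25 days is taken from the study's text. The groups d0, d3 and d28 thus share MLL-AF4. The AF4-MLL construct was transfected transiently, and the labels give the induction protocol for all 12 samples, Mock included. When Mock cells were harvested is not given in the sources used here. Mock was transfected apart from the cells with MLL-AF4, so that an effect of the fusion and a difference between transfected cell populations cannot be told apart.

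Genes of this size take many hours to transcribe, most of them encode cell adhesion molecules, synaptic scaffolds and channel subunits of neurons, and many are transcribed little outside the nervous system. Long transcription units that replicate late are also where common fragile sites lie, regions that break under replication stress, with FHIT and WWOX as the classical examples. MLL and AF4 take part in the marking of active promoters and in transcription elongation, respectively.

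The total counts per sample ran from 353430 to 3539937, and those outside the mitochondrially encoded genes from 257857 to 1116385. Mitochondrially encoded genes took 26.4% to 27.0% of the counts in Mock, 42.0% to 45.6% in d0, 32.8% to 44.1% in d3 and 63.6% to 68.5% in d28. This share moves with the group, and its part in the results on the members was not tested. Normalized counts below are counts divided by TMM-corrected library sizes, so that samples of unequal depth stand on 1 scale. None of 14 marker genes was at 0 in all samples. Their summed normalized counts were 73.8 to 108 for 6 kidney progenitor genes, 56.8 to 86.8 for 3 neuronal filament genes and 47.9 to 69.7 for 5 blood cell genes. These sums cover unequal numbers of genes, so the kinds are not ranked by them. Counts on a gene in ATAC-Seq are accessibility and not expression, so no cell type is read from these markers.

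Start regions that RefSeq lists are shown for the 3 members with the highest level per Mb (GPC6, WWOX and AUTS2), for LINGO2 and OPCML of the 3 with the lowest, CSMD1 having no listed window, and for NKAIN2 and CDH12, which had the smallest p-values of the members between d0 and Mock. The 250 bases upstream of the start are printed 5′ to 3′ on the gene's strand, with each CpG dinucleotide in capitals. They are given for GPC6 (chr13:93226557-93226806, plus strand), WWOX (chr16:78099404-78099653, plus), AUTS2 (chr7:69598225-69598474, plus), NKAIN2 (chr6:123804135-123804384, plus), CDH12 (chr5:22853345-22853594, minus), OPCML (chr11:132943837-132944086, minus) and LINGO2 (chr9:28719306-28719555, minus). For CDH12 and OPCML, which have more than 1 listed start, the window with the most CpG is shown. The windows of GPC6, NKAIN2, LINGO2 and OPCML lie inside the span of their genes, behind an outer start, and the window at the outer start of OPCML holds 9 CpG.
GPC6: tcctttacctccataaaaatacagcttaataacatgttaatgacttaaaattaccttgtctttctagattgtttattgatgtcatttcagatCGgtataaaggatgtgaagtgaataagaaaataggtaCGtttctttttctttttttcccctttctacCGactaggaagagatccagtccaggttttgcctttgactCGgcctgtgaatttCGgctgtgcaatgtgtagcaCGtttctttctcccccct
WWOX: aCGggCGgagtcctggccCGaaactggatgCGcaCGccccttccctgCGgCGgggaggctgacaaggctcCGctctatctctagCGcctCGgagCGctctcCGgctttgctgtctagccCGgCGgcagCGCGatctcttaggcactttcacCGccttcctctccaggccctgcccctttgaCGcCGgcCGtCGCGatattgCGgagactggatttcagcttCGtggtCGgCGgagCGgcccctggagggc
AUTS2: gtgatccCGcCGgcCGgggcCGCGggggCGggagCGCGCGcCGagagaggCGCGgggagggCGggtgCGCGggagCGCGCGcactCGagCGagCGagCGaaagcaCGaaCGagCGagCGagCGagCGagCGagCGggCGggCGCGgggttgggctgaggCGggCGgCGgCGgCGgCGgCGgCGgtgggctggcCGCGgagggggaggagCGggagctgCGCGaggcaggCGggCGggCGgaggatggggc
NKAIN2: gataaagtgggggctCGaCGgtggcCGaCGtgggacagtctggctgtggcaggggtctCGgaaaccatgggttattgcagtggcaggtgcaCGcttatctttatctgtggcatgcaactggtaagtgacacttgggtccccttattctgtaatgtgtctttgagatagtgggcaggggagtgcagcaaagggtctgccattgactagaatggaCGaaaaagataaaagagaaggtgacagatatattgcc
CDH12: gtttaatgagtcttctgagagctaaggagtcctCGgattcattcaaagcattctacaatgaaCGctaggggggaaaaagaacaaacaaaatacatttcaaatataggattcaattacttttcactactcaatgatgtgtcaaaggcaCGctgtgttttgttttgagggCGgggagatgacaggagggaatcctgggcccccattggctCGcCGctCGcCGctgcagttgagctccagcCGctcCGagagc
OPCML: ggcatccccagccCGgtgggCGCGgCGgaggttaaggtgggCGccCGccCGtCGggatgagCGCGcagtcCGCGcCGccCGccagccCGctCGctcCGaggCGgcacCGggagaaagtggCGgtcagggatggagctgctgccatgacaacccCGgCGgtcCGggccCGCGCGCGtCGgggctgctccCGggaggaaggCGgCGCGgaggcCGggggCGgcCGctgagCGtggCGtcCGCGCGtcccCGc
LINGO2: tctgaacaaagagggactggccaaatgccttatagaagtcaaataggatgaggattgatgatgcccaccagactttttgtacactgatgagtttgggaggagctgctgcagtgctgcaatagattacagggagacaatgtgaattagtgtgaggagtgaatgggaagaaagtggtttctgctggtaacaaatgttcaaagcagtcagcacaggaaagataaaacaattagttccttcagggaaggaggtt
These windows hold 6 CpG in GPC6, 27 in WWOX, 49 in AUTS2, 7 in NKAIN2, 10 in CDH12, 41 in OPCML and 0 in LINGO2. The GC content of the same windows runs from 37.6% in GPC6 to 82.8% in AUTS2. CpG-dense and CpG-poor windows thus occur both among the members with high and among those with low counts.

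Start windows were listed for 37 of the 43 members, 92 windows in all. In 24 of the 37 at least 1 window held 20 or more CpG (64.9%, against 49.4% of 15843 protein-coding genes with a window; a gene with more starts has more chances). The hexamer TATAAA, on either strand, occurred in 10 of these 92 windows, near its share of 10.7% of the 35116 windows of all genes. The 9 members with it were GPC6, GPC5, CDH12, CTNNA2, CNTN4, CCSER1, DLG2, EYS and NAALADL2. In CDH12 it lies in the window chr5:21889848-21890097, not in the one printed above. Over the 37 members the highest CpG count and the mean normalized count had a Spearman's rho of -0.20, whereas over 13586 protein-coding genes tested it was 0.39. Both values are across genes within the same libraries and are given as descriptions. The median normalized count was 16 for the 24 members with a CpG-dense window and 16.9 for the 13 without one.

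The members held few reads for their length, though not for their number. Their mean normalized count over the 12 samples ran from 2.10 (LINGO2) to 67.5 (GPC6) with a median of 14.6, and was 20 or more in 15 members and under 10 in 15. The median level was 10.6 over all 27579 genes tested and 12.4 over protein-coding genes under 10 kb. The longer classes of protein-coding genes, members left out, all lay above the members. Their medians were 15.6 from 10 to 30 kb, 18.7 from 30 to 100 kb and 18.8 from 100 to 300 kb. From 300 to 500 kb the median was 18.3, and at 500 kb or more it was 16.2. The interval over which reads were counted for a gene is not given in the sources used here, and the counts do not grow with gene length among the members (Spearman's rho 0.09 over 43 genes). Among 16891 protein-coding genes tested rho was 0.16. The members, 43 of these 16891 genes, made up 5.07% of their summed length and 0.255% of their normalized counts. Per Mb of gene length the members held 14.6 normalized counts, the other 264 genes of at least 500 kb 29.9, and genes under 10 kb 3410. A level per length is therefore an average over the annotated span, not a density of reads known to have been counted there.

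On that scale the highest levels were those of GPC6 (56.7 normalized counts per Mb), a glypican that carries heparan sulfate at the cell surface, of WWOX (51.6 per Mb), an oxidoreductase with WW domains whose gene holds a fragile site, and of AUTS2 (49.9 per Mb), a chromatin regulator of neuronal development. GPC6 had 77.8, 77.4 and 64.6 normalized counts in Mock, 61.0, 70.9 and 72.5 in d0, 74.7, 68.5 and 65.8 in d3 and 61.2, 73.8 and 42.2 in d28. AUTS2 had 44.9, 55.4 and 66.4 in Mock, 64.7, 52.5 and 69.9 in d0, 61.6, 43.6 and 58.6 in d3 and 60.2, 61.2 and 77.2 in d28. The groups overlapped for both genes, and all adjusted p-values of GPC6 and AUTS2 in the 6 comparisons were 0.558 or more (edgeR). The order among GPC6, WWOX and AUTS2 is within the spread of their samples.
The lowest levels were those of LINGO2 (1.65 normalized counts per Mb), a leucine-rich membrane protein, CSMD1 (3.12 per Mb), a complement-control protein, and OPCML (3.14 per Mb), a glycolipid-anchored IgLON adhesion molecule. The raw counts of LINGO2 were 0, 1 and 1 in Mock, 2, 1 and 2 in d0, 3, 1 and 1 in d3 and 7, 3 and 4 in d28. LINGO2 passed the filter on low counts only through d0 and d28, while OPCML and the other members had a mean above 2 in Mock as well. OPCML with its CpG-dense inner window and LINGO2, whose inner window held no CpG, thus both lay at the low end.

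The comparison of d0 with Mock asks what constitutive MLL-AF4 goes along with. One member, NKAIN2, rose, and the members as a group lay higher in d0: 35 of 43 had a log2 fold change above 0, with a median of 0.28 against -0.0017 over all 27579 genes tested. All 43 members passed the filter and were tested. With edgeR, 1 was called at an adjusted p below 0.05, where the share called over all genes was 0.609%, and DESeq2 called 1 as well. DESeq2 gave no adjusted p for 29 of the 43 members, which it thus could not call. At an unadjusted p below 0.05, 11 members were higher, where the background was 5.04%, and 1 was lower, where it was 4.61%. The median standard error of a member's log2 fold change in this comparison was 0.37, so a difference under about 1.66-fold lay within the 95% interval of a typical member.

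NKAIN2 (chromosome 6, 123803865 to 124825640, GRCh38.p14) encodes a small membrane protein that interacts with the sodium/potassium ATPase, and it holds no other RefSeq gene. Its normalized counts were 22.4, 24.5 and 29.5 in Mock, 47.3, 53.9 and 59.6 in d0, 36.96, 40.2 and 43.6 in d3 and 39.6, 40.1 and 32.0 in d28. All samples of d0 lay above all others, and all Mock samples lay below all others. Against Mock the log2 fold change in d0 was 1.08 ± 0.24 (SE, n = 3 per group) with an adjusted p of 0.0026 by edgeR's quasi-likelihood test. With library sizes alone as the scale, NKAIN2 was not called (log2 fold change 0.64, adjusted p 0.151). The 34 tested genes within 5 Mb of NKAIN2 had a median log2 fold change of 0.26 in the same comparison, 25 of them above 0 and 0 called. The part of this neighbourhood in the value of NKAIN2 was not tested.
At d3 and d28 the log2 fold change of NKAIN2 against the same Mock samples was 0.67 ± 0.24 (adjusted p 0.166) and 0.60 ± 0.24 (adjusted p 0.218). Against d0 it was -0.41 ± 0.19 at d3 (adjusted p 0.368) and -0.48 ± 0.19 at d28 (adjusted p 0.218). These comparisons did not pass the threshold.

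CDH12, a classical cadherin of the brain, was next. Its normalized counts were 21.0, 23.2 and 22.1 in Mock, 34.8, 51.0 and 44.0 in d0, 26.9, 31.7 and 34.1 in d3 and 27.4, 24.6 and 27.7 in d28. As with NKAIN2, the Mock samples were the lowest and those of d0 the highest, with no overlap between these groups. The log2 fold change of CDH12 in d0 was 0.95 ± 0.26 with an adjusted p of 0.0502 by edgeR, which is not called. With each of the 12 samples left out in turn the log2 fold change of CDH12 stayed between 0.83 and 1.09, while the adjusted p ran from 0.0402 without d0 replicate 1 to 0.309 without d0 replicate 2. Against d0, CDH12 stood at -0.70 ± 0.22 in d28 (adjusted p 0.0727). The 14 tested genes within 5 Mb had a median of 0.22 in d0 against Mock.

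**Figure D1:**
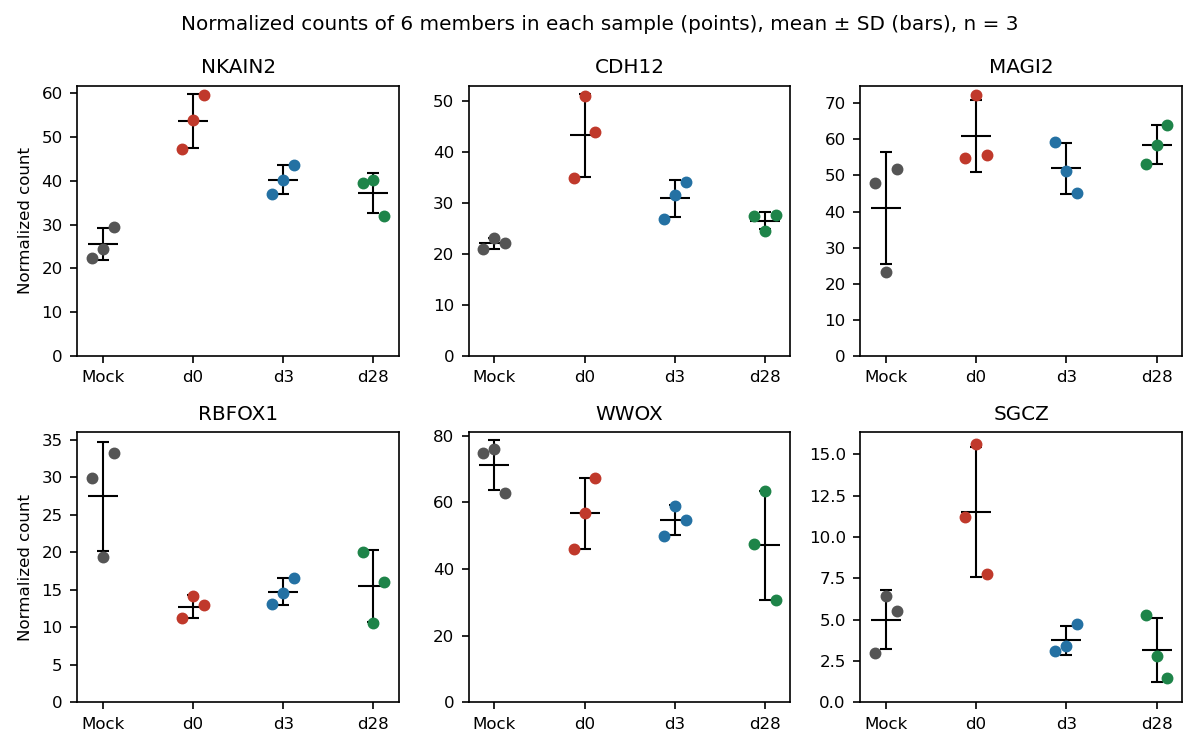
Normalized counts (vertical axis, starting at 0) of NKAIN2, CDH12, MAGI2, RBFOX1, WWOX and SGCZ in each sample (points) of the 4 groups, with mean and SD (bars, n = 3). NKAIN2 and CDH12 are highest in d0, whereas RBFOX1 and WWOX have their highest mean in Mock.

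Among the adhesion and recognition molecules, 9 of 10 members lay above 0 in d0 against Mock, with a median log2 fold change of 0.52, and 0 were called. NRXN3, a presynaptic neurexin, had 25.4, 38.7 and 29.5 normalized counts in Mock and 51.0, 42.5 and 54.4 in d0, without overlap (log2 fold change 0.64 ± 0.23, adjusted p 0.267). CNTNAP2, a partner of contactins that gathers potassium channels along axons, had 32.9, 38.7 and 29.5 in Mock and 44.8, 41.1 and 57.0 in d0, again without overlap (0.48 ± 0.23, adjusted p 0.473). PTPRD, a receptor phosphatase that organizes synapses, had the largest fold of the members here (1.30 ± 0.54, adjusted p 0.394), on normalized counts of 4.49, 0 and 11.1 in Mock and 8.71, 15.6 and 10.4 in d0, which overlap. The log2 fold change of PTPRD was 0.62 without Mock replicate 2 and 2.39 without Mock replicate 3, so that its size and its rank depend on single libraries. Of the remaining members of this role (CNTN4, CNTN5, LSAMP, OPCML, ROBO2, LINGO2 and ASTN2) none reached an unadjusted p below 0.05 in this comparison.
Of the cadherins and catenins, 6 of 6 lay above 0 with a median of 0.20. Apart from CDH12 these are the anchored cadherin CDH13, PCDH15 of the hair cell tip link, and the catenins CTNNA2, CTNNA3 and CTNND2, and none of these 5 reached an unadjusted p below 0.05. PCDH15 ran from 12.9 to 41.1 normalized counts within d0 alone, a spread wider than that between the group means of 19.5 and 27.98.

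The scaffolds and channel subunits had 5 of 6 members above 0 and a median of 0.50. MAGI2, a scaffold with PDZ domains at synapses and tight junctions, had 47.9, 23.2 and 51.7 normalized counts in Mock and 54.7, 72.3 and 55.7 in d0 (0.62 ± 0.21, adjusted p 0.218). Mock replicate 2 is the low sample here, and d0 and Mock do not overlap. KCNIP4, DPP6 and DPP10, which associate with Kv4 potassium channels, and the synaptic scaffold DLG2 did not reach an unadjusted p below 0.05 in this comparison.
SGCZ, a sarcoglycan, showed the second largest fold in d0 against Mock (1.16 ± 0.54, adjusted p 0.457) on few reads: its raw counts were 2, 5 and 3 in Mock and 9, 11 and 6 in d0. The other large glycoproteins (CSMD1, CSMD3, LRP1B, EYS, GPC5 and GPC6) did not reach an unadjusted p below 0.05, and the median of the 7 was 0.18.

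The signalling and regulatory members went in both directions. RBFOX1, a splicing regulator of neurons and muscle, had the lowest log2 fold change of all members (-1.07 ± 0.34, adjusted p 0.143), with 29.9, 19.3 and 33.2 normalized counts in Mock and 11.2, 14.2 and 12.9 in d0. Its values were 13.1, 14.5 and 16.6 in d3 and 20.05, 10.6 and 16.02 in d28, so that d0 and d3 lay below Mock without overlap while 1 sample of d28 reached into the Mock range. Against the same Mock samples RBFOX1 stood at -0.86 ± 0.30 in d3 (adjusted p 0.149) and -0.75 ± 0.29 in d28 (adjusted p 0.201), and none of the 3 passed the threshold. The 221 tested genes within 5 Mb of RBFOX1 had a median log2 fold change of -0.28 in d0 against Mock, 51 of them above 0 and 4 called. The part of this neighbourhood in the value of RBFOX1 was not tested. SOX5, a transcription factor of cartilage and cortical neurons, had 11.98, 12.9 and 7.38 in Mock and 26.1, 15.6 and 19.4 in d0 (0.89 ± 0.37, adjusted p 0.402). PDE4D, which breaks down cyclic AMP, and DAB1, an adaptor of reelin signalling, stood at 0.44 ± 0.21 and 1.03 ± 0.52 (adjusted p 0.469 and 0.511, edgeR). AUTS2, the neuregulin receptor ERBB4 and the vesicle protein PTPRN2 did not reach an unadjusted p below 0.05.

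Among the fragile-site genes and enzymes, 6 of 7 lay above 0 with a median of 0.21. WWOX was the exception with -0.35 ± 0.19 (adjusted p 0.557). CCSER1 had 16.5, 15.5 and 16.6 normalized counts in Mock and 26.1, 28.4 and 22.01 in d0, without overlap (0.65 ± 0.32, adjusted p 0.501). The 42 tested genes within 5 Mb of CCSER1 had a median of 0.50 in this comparison, 34 of them above 0 and 1 called. Other members with an unadjusted p below 0.05 here had mixed neighbourhoods. Their neighbours' medians were 0.29 for SOX5, 0.23 for SGCZ, 0.21 for PTPRD, and 0.06 for MAGI2 and CNTNAP2. For PDE4D (-0.045), NRXN3 (-0.068) and DAB1 (-0.097) the medians lay below 0, although these members lay above 0. FHIT, a hydrolase of diadenosine polyphosphates at the most fragile site of the genome, had 8.98, 7.74 and 12.9 in Mock and 8.71, 12.8 and 12.9 in d0, which overlap (0.25 ± 0.45, adjusted p 0.915). MACROD2, IMMP2L, NAALADL2 and AGBL4 did not reach an unadjusted p below 0.05.

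**Figure D2:**
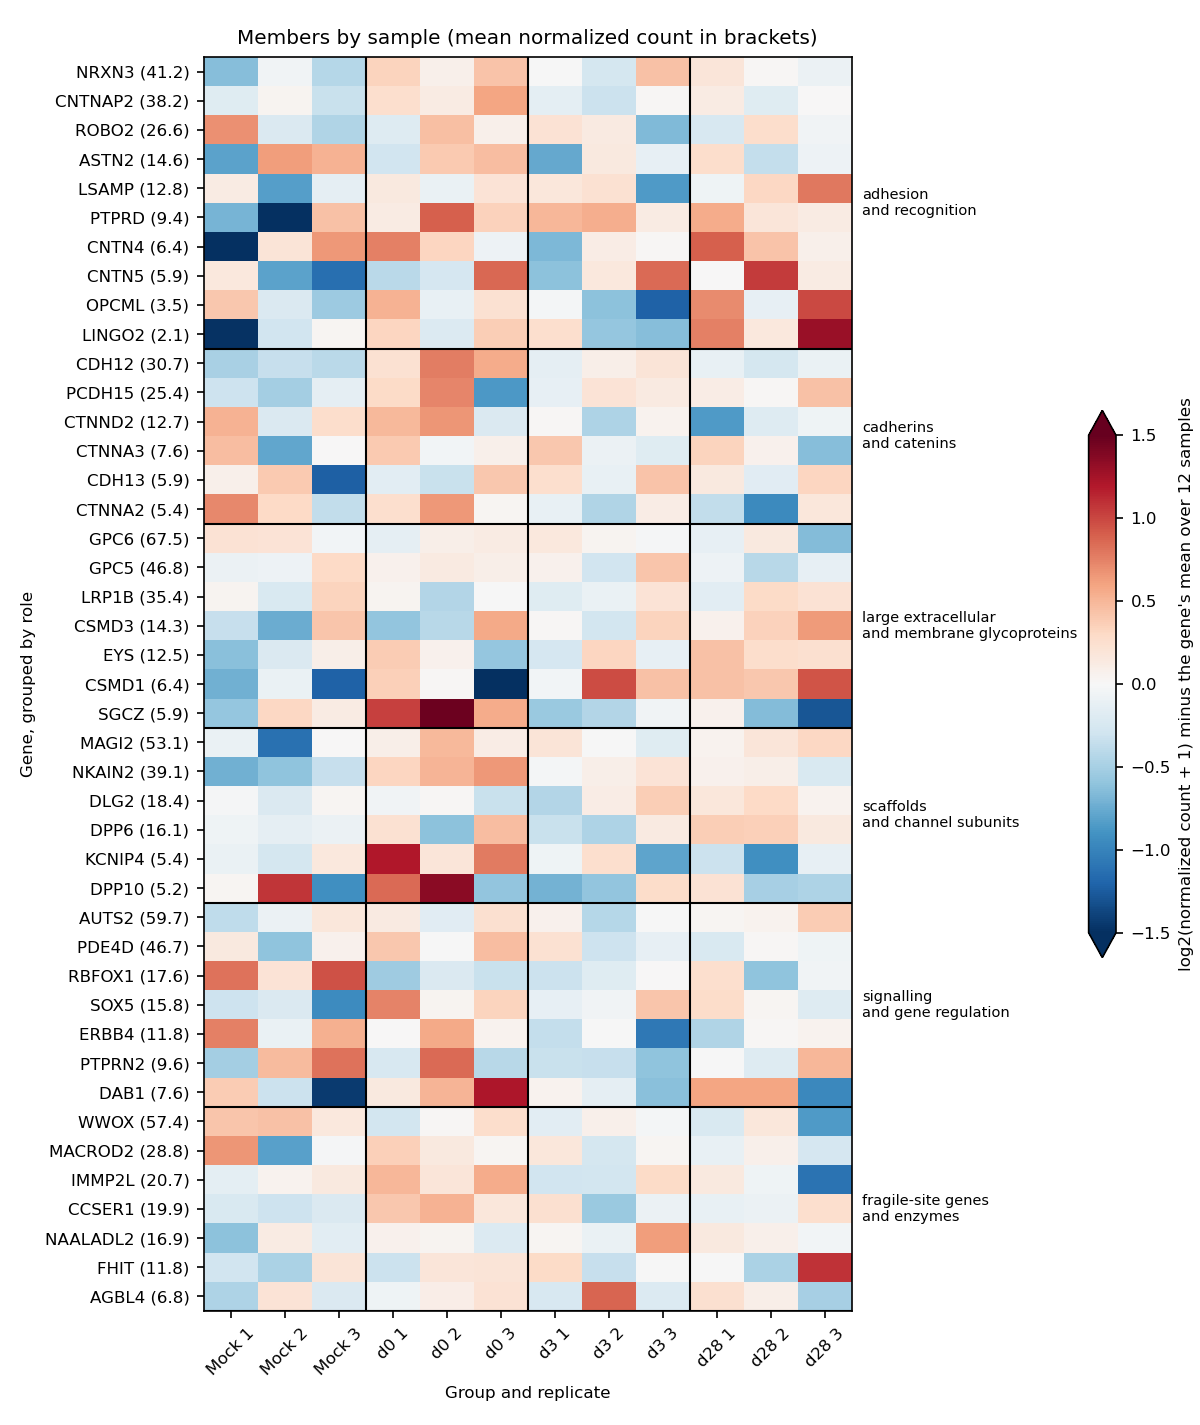
Heat map of the 43 members (rows, grouped by role and ordered by mean normalized count, given in brackets) in 12 samples (columns); colour is log2(normalized count + 1) minus the gene's mean over the samples, and values beyond 1.5 take the end colour. Rows with few counts vary most between replicates; NKAIN2 and CDH12 are blue in Mock and red in d0.

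In d3 against Mock, which adds a second transfection and 48 h of AF4-MLL to MLL-AF4, 23 of 43 members lay above 0. The median log2 fold change was 0.06, against 0.03 over all genes. edgeR called 0 members, where 1.27% of all genes were called, and DESeq2 also called 0 but gave no adjusted p for 15. At an unadjusted p below 0.05, 5 members were higher (background 6.45%) and 3 were lower (background 4.85%). The 5 were NKAIN2, PTPRD, CSMD1, MAGI2 and NRXN3, and the 3 were RBFOX1, WWOX and ERBB4. ERBB4 had 19.5, 10.3 and 16.6 normalized counts in Mock and 8.47, 11.1 and 4.75 in d3, which overlap (-0.90 ± 0.39, adjusted p 0.327). CSMD1 had 2.99, 5.16 and 1.85 in Mock and 5.39, 11.98 and 7.92 in d3 (1.21 ± 0.57, adjusted p 0.393), which do not overlap.

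In d28 against Mock, 28 of 43 members lay above 0 with a median of 0.22, against 0.03 over all genes. edgeR called 0 members, where 1.45% of all genes were called, and DESeq2 called 0 but gave no adjusted p for 28. At an unadjusted p below 0.05, 4 members were higher, MAGI2, NKAIN2, PTPRD and CSMD1 (background 6.63%), and 2 were lower, WWOX and RBFOX1 (background 5.85%). WWOX had 74.8, 76.1 and 62.8 normalized counts in Mock, 46.0, 56.7 and 67.3 in d0, 50.05, 59.1 and 54.7 in d3 and 47.5, 63.3 and 30.6 in d28. Its log2 fold change against Mock was -0.40 ± 0.17 in d3 (adjusted p 0.317) and -0.53 ± 0.17 in d28 (adjusted p 0.102, edgeR). The samples of d3 lay below those of Mock, and 1 sample of d28 overlapped with them. Without that sample, d28 replicate 2, WWOX was called in d28 (-0.745, adjusted p 0.0239), and it was the only member whose call in this comparison depended on 1 library. With each of the 12 samples left out in turn, its log2 fold change ran from -0.745 to -0.391. The adjusted p of WWOX (edgeR) then ran from 0.0239 to 0.428. The largest fitted fold in d28 was that of LINGO2, whose 14 raw counts in d28 and 2 in Mock give a ratio of 3.47 with an exact 95% counting interval from 0.80 to 31.5. CSMD1 (1.25 ± 0.57, adjusted p 0.32, edgeR) and PTPRD (1.17 ± 0.50, adjusted p 0.277) came next.
The 3 comparisons with Mock share the Mock samples, so they are not independent of one another. The same holds for those with d0.

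In d3 against d0, the step that adds AF4-MLL, 11 of 43 members lay above 0, and the median was -0.21 against 0.02 over all genes. By the study's text this step also holds a second transfection and 48 h of blasticidin and doxycycline. These cannot be told apart from AF4-MLL here, and d28 against d0 carries them as well. edgeR called 0 members, where 0.91% of all genes were called, and DESeq2 called 0 but gave no adjusted p for 27. At an unadjusted p below 0.05, 0 members were higher (background 6.44%) and 7 were lower (background 5.0%): SGCZ, CNTNAP2, DAB1, CDH12, NKAIN2, KCNIP4 and DPP10. SGCZ had 11.2, 15.6 and 7.77 normalized counts in d0, 3.08, 3.42 and 4.76 in d3 and 5.28, 2.81 and 1.46 in d28. Its samples in d0 thus lay above those of d3 and d28 without overlap, with log2 fold changes of -1.57 ± 0.49 (adjusted p 0.0932) and -1.59 ± 0.49 (adjusted p 0.0653). When only the samples of d0 and d28 entered the fit, SGCZ was called in d28 (adjusted p 0.0477). KCNIP4 had 12.4, 5.67 and 9.06 in d0, 4.62, 5.99 and 2.38 in d3 and 3.69, 2.11 and 4.37 in d28, and DPP10 had 8.71, 12.8 and 2.59 in d0, 2.31, 2.57 and 5.55 in d3 and 5.28, 2.81 and 2.91 in d28. Both belong to the Kv4 channel complex, and both had d0 replicates spread by more than 2 times.

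In d28 against d0, 16 of 43 members lay above 0 with a median of -0.13, against 0.04 over all genes. edgeR called 0 members, where 1.35% of all genes were called, and DESeq2 called 0 but gave no adjusted p for 29. At an unadjusted p below 0.05, 0 were higher (background 6.83%) and 7 were lower (background 5.79%): SGCZ, CDH12, KCNIP4, NKAIN2, CTNND2, PDE4D and IMMP2L. KCNIP4 stood at -1.46 ± 0.53 (adjusted p 0.154) and IMMP2L, a peptidase of the inner mitochondrial membrane, at -0.55 ± 0.27 (adjusted p 0.36). For IMMP2L the low sample was d28 replicate 3, with 8.74 normalized counts beside 22.2 and 19.0. DPP10, among the 3 largest folds here, stood at -0.97 ± 0.53 (adjusted p 0.44, edgeR).
In d28 against d3, 26 of 43 lay above 0 with a median of 0.07, against 0.01 over all genes. edgeR called 0 members, where 0.37% of all genes were called, and DESeq2 called 0 but gave no adjusted p for 20. At an unadjusted p below 0.05, 2 were higher (background 4.15%), OPCML and CNTN4, and 0 were lower (background 4.68%). The 20 raw counts of OPCML in d28 and 7 in d3 give a ratio of 2.66 with an exact 95% counting interval from 1.08 to 7.45, and the adjusted p of OPCML was 0.512. CNTN4, a contactin, had 3.08, 5.99 and 5.55 normalized counts in d3 and 11.1, 7.73 and 5.82 in d28, which overlap. LINGO2, also among the 3 largest folds here, stood at 1.32 ± 0.77 (adjusted p 0.639, edgeR) on very few raw counts.

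The share of reads on the members, taken over counts outside the mitochondrially encoded genes, was 0.178% ± 0.0106 in Mock, 0.204% ± 0.00603 in d0, 0.173% ± 0.0112 in d3 and 0.158% ± 0.00551 in d28 (mean ± SD, n = 3). The samples of d0 ran from 0.198% to 0.210% and lay above the Mock samples, which ran from 0.166% to 0.186%. In a single sample the counting error is of the same size as these differences, as the 95% Wilson interval of Mock replicate 3 from 0.17% to 0.204% shows, and it covers counting error only. The low share at d28 went with the denominator: with the nuclear copies of mitochondrial genes left out as well, it was 0.192% ± 0.00208 at d28, beside 0.184% ± 0.0117 in Mock, 0.22% ± 0.00569 in d0 and 0.184% ± 0.009 in d3. The mean of d0 was the highest with either of these denominators. With all counts as denominator, the mitochondrially encoded genes included, Mock was the highest with 0.13% beside 0.114% in d0. A bulk library does not tell a site that is open in fewer cells from one that is less open in each.

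The 28 members with a mean of 10 or more normalized counts had a median log2 fold change of 0.21 in d0 against Mock, with 21 above 0, and the 15 members under 10 had a median of 0.44, with 14 above 0. In d3 against d0 the medians were -0.19 and -0.61. The direction was thus the same in members with more and with fewer reads, while the sizes differed.

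Gene length ran along with the difference between d0 and Mock beyond the members. Among protein-coding genes other than the members, the median log2 fold change was -0.0452 under 10 kb (3765 genes), -0.0501 from 10 to 30 kb, 0.0118 from 30 to 100 kb, 0.0693 from 100 to 300 kb, 0.135 from 300 to 500 kb (444 genes) and 0.107 at 500 kb or more (264 genes). Of these 264 genes 63.6% lay above 0, against 81.4% of the members. In d3 against d0 the order ran the other way, from 0.0996 under 10 kb to -0.108 from 300 to 500 kb and -0.136 at 500 kb or more, next to -0.21 for the members. In d3 against Mock the classes stayed between -0.0503 and 0.0542. In d28 against Mock the medians again rose with length, from -0.0157 under 10 kb to 0.113 from 300 to 500 kb and 0.0786 at 500 kb or more. In d28 against d3 the same 3 classes stood at -0.0858, 0.0777 and 0.0602, and in d28 against d0 at 0.0344, -0.0167 and -0.0803. At an unadjusted p below 0.05 (edgeR), 26 of the 264 genes were higher (background 5.04%) and 5 lower (background 4.61%) in d0 against Mock. In d3 against d0, 8 of them were higher (background 6.44%) and 29 lower (background 5.0%). In d28 against d0, 18 were higher, near the background of 6.83%, and 31 lower (background 5.79%). The medians are descriptions over genes that share the same libraries, and the part of depth or of the mitochondrial share in them was not tested.

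**Figure D3:**
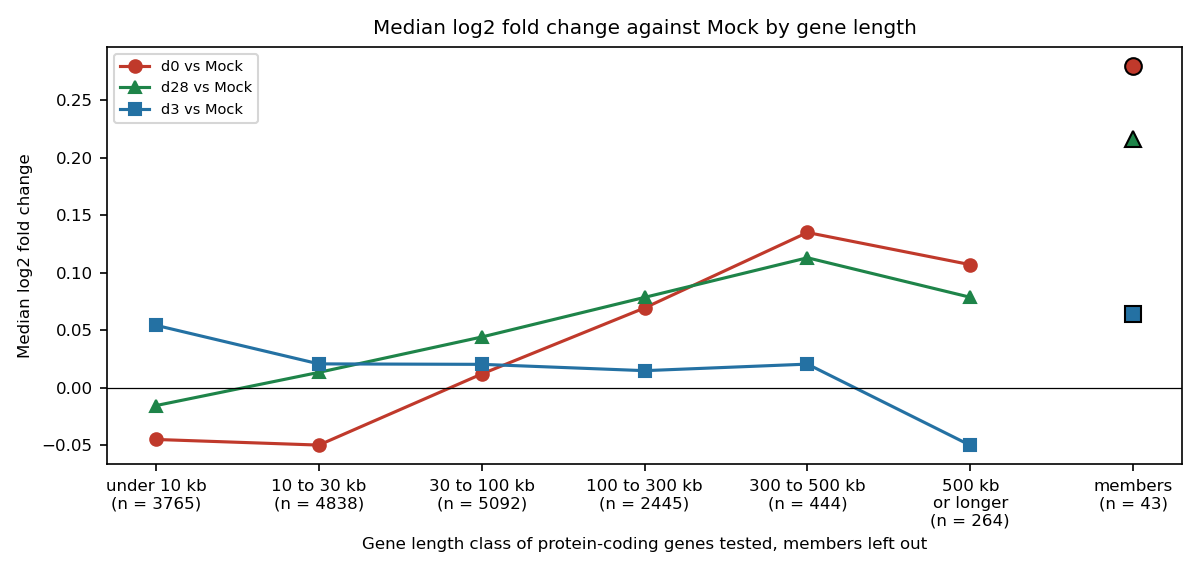
Median log2 fold change against Mock (vertical axis) of protein-coding genes in 6 length classes, members left out, for d0, d3 and d28, and of the 43 members (outlined symbols at the right). The d0 line runs from -0.0452 under 10 kb to 0.135 between 300 and 500 kb, and the members stand at 0.28.

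Reads on a long gene may lie in a gene nested within it. RefSeq places 323 genes inside the members, 114 of which have an entry in the table, and 8 members hold 1 protein-coding gene each, a set looked at after the members' values were known. Of the 7 of these 8 that were tested, 2 fell in d3 against d0. LRRTM1, a postsynaptic adhesion protein inside CTNNA2, had raw counts of 6, 7 and 12 in d0 and 1, 2 and 3 in d3, a ratio of 0.147 with an exact 95% counting interval from 0.0493 to 0.367 (adjusted p 0.0031, edgeR). FLRT3, an adhesion protein inside MACROD2, had 13.7, 22.7 and 27.2 normalized counts in d0 and 6.93, 3.42 and 10.3 in d3 (log2 fold change -1.58 ± 0.36, adjusted p 0.00446). For both genes all samples of d0 lay above all samples of d3. Without d0 replicate 3 neither was called, at a log2 fold change of -2.33 for LRRTM1 (adjusted p 0.115, against -2.68 with all samples) and of -1.34 for FLRT3 (adjusted p 0.139), and without d3 replicate 2 FLRT3 stood at -1.28 (adjusted p 0.0811). The host gene MACROD2 had means of 31.9 normalized counts in d0 and 27.7 in d3 and CTNNA2 of 6.64 and 4.53, neither at an unadjusted p below 0.05. How reads in overlapping genes were assigned is not given in the sources used here.

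Relatives of the members were read from the same fit. Of 70 family relatives (other contactins, cadherins, neurexins, glypicans and the like), all tested, 42 lay above 0 in d0 against Mock with a median of 0.13. edgeR called 0 of them, where 0.609% of all genes were called. At an unadjusted p below 0.05, 1 was higher (background 5.04%) and 4 were lower (background 4.61%). In d3 against Mock, 1 of the 70 relatives was called, near the 1.27% called over all genes. It was RBFOX2, the broadly expressed splicing regulator of the RBFOX family, with 63.3 ± 8.09 normalized counts in d3 and 37.8 ± 15.3 in Mock (SD, n = 3; log2 fold change 0.69 ± 0.19, adjusted p 0.0357). RBFOX1 lay on the other side of 0 in the same comparison but was not called. Of 20 other long or fragile-site genes, 16 lay above 0 in d0 against Mock with a median of 0.43. RORA, a nuclear receptor, rose in d28 against d0 (38.5 ± 6.72 and 19.9 ± 4.29 normalized counts, log2 fold change 0.96 ± 0.24, adjusted p 0.0123), where 1.35% of all genes were called. Over the family relatives no other gene was called in the 6 comparisons.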

How the data were processed

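ATAC-Seq was done on 12 samples, 4 groups of 3 replicates labelled BR, which the study's text calls biological replicates. Whether each came from its own transfection is not given in the sources used here, and p-values measure the spread between these samples. The authors deposited 1 table of raw counts of reads per gene (whole numbers, no normalization). The submitters' processing notes name bcl2fastq, Bowtie2, HTSeq and GRCh38, without roles or versions. Read shift, duplicate removal and counted interval are not given in the sources used here. Counts without molecular identifiers carry counting error only in their intervals.

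The 27579 genes whose mean normalized count exceeded 2 in any of the groups were fitted with edgeR 4.0.16 (TMM factors recomputed after the filter, quasi-likelihood F test, all 12 samples, R 4.3.3), and p-values were adjusted (Benjamini-Hochberg) over all of them. An interval of a fold change is 1.96 standard errors on either side. DESeq2 1.42.0, other scalings and filters, a replicate block and leaving out each sample were alternatives. All 43 symbols matched RefSeq GRCh38.p14, the source of positions and sequences. The members, the role lists and the lists of relatives were chosen with earlier results of these data known. Named are called members, the 3 largest folds per comparison and the 3 highest and lowest levels per Mb. The members with an unadjusted p below 0.05 and WWOX at d28 were added after their values were seen, as were the nested genes. A result on 1 gene of the list of other long genes is not reported here.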

Additional observations from a re-analysis of the deposited data

How the results depend on the processing

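The call of NKAIN2 in d0 against Mock held with DESeq2, RLE factors, both other filters, mitochondrially encoded genes left out, only the 2 groups compared, the replicate block and each sample left out in turn, and was lost with library sizes alone (log2 fold change 0.64). Leaving out 1 sample gave 1 to 2 members called in d0 against Mock and 0 to 1 in d28 against Mock, the added ones being CDH12 and WWOX. With filterByExpr, which keeps 29 members, 2 members were called in d0 against Mock and 1 in d28 against d0 (CDH12), and with TMM factors taken before the filter, a setting chosen after seeing the data, 2 in d0 against Mock. With only the 2 groups compared, 1 was called in d28 against d0 (SGCZ). Library sizes alone shifted the median log2 fold change of all genes, down to -1.34 in d28 against Mock. They gave 2, 2, 30, 28 and 31 members called and member medians of -0.165, -0.296, -1.12, -1.04 and -0.916 in d0, d3 and d28 against Mock, d28 against d0 and d28 against d3. Over all genes, 1411, 709, 17855, 12262 and 16061 were called in the same comparisons and on the same scale. Their medians were -0.479, -0.37, -1.34, -0.872 and -0.975. With library sizes alone PDE4D in d0 (-0.0118), CDH12 (-1.1), CSMD1 (-0.0823), MAGI2 (-0.813), NKAIN2 (-0.767) and PTPRD (-0.19) in d28 against Mock, and CNTN4 in d28 against d3 (-0.14), changed sign. Relative to all genes, the median of the members in d0 against Mock was 0.282 and stayed between 0.188 and 0.351 over the 21 alternatives, and in d3 against d0 it was -0.231, between -0.336 and -0.175. In d3 against Mock this difference ran from -0.0284 to 0.156 and so took both signs. With all counts as denominator the share on the members was 0.13% in Mock, 0.114% in d0, 0.105% in d3 and 0.0547% in d28, so that Mock was then the highest. With nuclear copies of mitochondrial genes left out it was 0.22% in d0, 0.184% in d3 and 0.192% in d28.

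The replicate numbers did not pair the samples: same-numbered samples had deviations that correlated between -0.153 and 0.0824 over 8295 genes. With the replicate block 1 member was called in d0 against Mock and 0 in the other 5 comparisons, and the median in d0 against Mock was 0.293. DESeq2 gave no adjusted p for 15 to 29 members, and called 1 member in d0 against Mock and 0 elsewhere. The planned level per exon length was not run, since exon lengths were not at hand. With a median of 14.6 normalized counts per member, differences below about 1.48-fold to 1.66-fold were within the 95% interval of a typical member.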
